A study of Mus musculus with 3 samples.

Results

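The genes described here are mostly those of enzymes and anchoring proteins that make, break down and read second messengers. Their DNA was studied in the mouse cerebellum. They were taken by symbol from the protein-coding genes of GENCODE M39, as those beginning Prkc, Prka, Prkg, Pde, Adcy (without Adcyap), Gucy, Plcb, Plcg, Camk, Dgk or Akap and continuing with a digit or a letter. The rule found 116 of 21770 protein-coding genes. The symbol rule also takes in a few genes of another function, such as Prkcsh, a glucosidase subunit of the endoplasmic reticulum, and Camkmt, a methyltransferase of calmodulin. DNA of the cerebellum of 1 female C57Bl6Cr mouse of 8 weeks was immunoprecipitated in 3 separate reactions with an antibody against 5-hydroxymethylcytosine (5hmC) and sequenced by nanopore, which is called hMeDIP here. Replicate 1 used whole serum, and replicates 2 and 3 used the IgG-purified antibody. The reactions share an animal, so that differences between them measure the reaction and the sequencing and not the spread between mice. The antibody preparation and replicate 1 cannot be told apart. The files hold DNA base-calls and peaks and no expression, so the tissue label could not be set against marker transcripts.

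Peaks were called in each replicate alone, and their numbers were 497, 8546 and 5166 for replicates 1, 2 and 3. Overlapping peaks merged into 13342 regions, and a region was given to a gene where its midpoint lay in the gene body or in the 1000 bp upstream. The second messenger genes held 256 of these regions, spread over 50 of the 116 genes. Each CpG in a region carries counts of base-calls as 5hmC, 5-methylcytosine (5mC) or unmodified C. For the 256 regions replicate 1 gave 670 calls over 533 CpGs. Replicate 2 gave 1647 over 1188 CpGs and replicate 3 gave 1217 over 852 CpGs. No CpG site in them had more than 5 calls in a replicate, so a share of 5hmC is only given over the summed calls of a region, a gene or a set. Neighbouring calls can come from the same read, and the intervals given below cover counting error only.

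Second messengers are small molecules that carry a signal from a receptor at the cell surface into the cell. Adenylyl and guanylyl cyclases make cAMP and cGMP, which phosphodiesterases hydrolyse. Phospholipases C cleave a membrane lipid into inositol trisphosphate, which releases stored calcium, and diacylglycerol, which diacylglycerol kinases remove. These signals are read by the cAMP-dependent, cGMP-dependent and calcium/calmodulin-dependent kinases and by protein kinase C, and A-kinase anchoring proteins hold the cAMP-dependent kinase in place. In the cerebellum they act on both sides of the synapse between granule cells and Purkinje cells, where protein kinase C is needed for long-term depression. 5hmC is made from 5mC by the TET enzymes and is abundant in the DNA of neurons, mostly within gene bodies.

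Peaks of at least 2 replicates are the positions that can be set side by side, and 15 of the 256 regions had them. Windows of 300 bases about the mean summit of 5 such regions are printed because they show how the base-calls differed between regions that the antibody pulled down, from a coding exon of Adcy9 where 5hmC led to an intron of Prkar1b where unmodified C led. The summits of the replicates lay 521 bp apart in Prkcb, 379 bp in Prkar1b and 317 bp in Prkce, so that 1 of the 3 Prkcb summits and none of the Prkar1b and Prkce summits fell within the window. They were read from GRCm39 on the forward strand, 5′ to 3′, with every CpG in capitals. Adcy9 lies at chr16:4236129-4236428, Prkcb at chr7:121918852-121919151, Adcy5 at chr16:35000400-35000699, Prkce at chr17:86610927-86611226 and Prkar1b at chr5:139114681-139114980.
Adcy9: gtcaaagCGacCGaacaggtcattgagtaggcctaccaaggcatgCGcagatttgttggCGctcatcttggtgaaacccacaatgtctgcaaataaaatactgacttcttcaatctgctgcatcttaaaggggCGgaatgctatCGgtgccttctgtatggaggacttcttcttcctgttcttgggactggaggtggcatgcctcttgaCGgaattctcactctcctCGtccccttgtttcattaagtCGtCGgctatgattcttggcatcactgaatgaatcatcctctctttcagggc
Prkcb: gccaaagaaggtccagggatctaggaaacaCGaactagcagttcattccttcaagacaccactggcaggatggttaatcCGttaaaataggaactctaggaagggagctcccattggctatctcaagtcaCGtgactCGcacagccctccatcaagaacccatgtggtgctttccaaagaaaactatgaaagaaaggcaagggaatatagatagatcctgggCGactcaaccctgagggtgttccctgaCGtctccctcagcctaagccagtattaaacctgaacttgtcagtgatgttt
Adcy5: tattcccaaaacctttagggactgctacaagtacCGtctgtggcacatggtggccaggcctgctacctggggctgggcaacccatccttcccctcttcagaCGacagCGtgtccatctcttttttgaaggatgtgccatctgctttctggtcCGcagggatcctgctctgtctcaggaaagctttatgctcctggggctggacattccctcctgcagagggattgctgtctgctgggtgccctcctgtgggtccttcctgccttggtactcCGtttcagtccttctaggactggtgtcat
Prkce: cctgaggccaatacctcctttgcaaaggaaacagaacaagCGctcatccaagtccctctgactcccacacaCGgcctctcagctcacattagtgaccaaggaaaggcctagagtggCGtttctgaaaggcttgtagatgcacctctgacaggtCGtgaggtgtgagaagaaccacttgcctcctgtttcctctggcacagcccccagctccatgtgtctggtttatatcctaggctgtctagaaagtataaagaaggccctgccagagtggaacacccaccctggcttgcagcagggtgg
Prkar1b: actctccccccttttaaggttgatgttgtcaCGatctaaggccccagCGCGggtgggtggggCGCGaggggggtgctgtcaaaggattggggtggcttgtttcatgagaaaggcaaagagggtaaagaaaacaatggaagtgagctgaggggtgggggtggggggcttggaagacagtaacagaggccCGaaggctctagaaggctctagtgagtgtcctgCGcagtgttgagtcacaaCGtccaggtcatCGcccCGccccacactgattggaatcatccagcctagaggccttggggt

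The 10 CpGs of the Adcy9 window were all covered, and 9 of them had at least 1 call of 5hmC. Summed over the 3 replicates, 23 of the 33 calls in that window were 5hmC, 3 were 5mC and 7 were unmodified C. The Prkcb window had 6 CpGs and 24 calls, of which 8 were 5hmC and 14 were 5mC. The Adcy5 window had 5 CpGs and 13 calls, with 6 of 5hmC and 5 of 5mC. The Prkce window had 4 CpGs and only 10 calls, divided between 3 of 5hmC, 3 of 5mC and 4 of unmodified C. The Prkar1b window had 10 CpGs and 20 calls, of which 1 was 5hmC, 4 were 5mC and 15 were unmodified C.

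Second messenger genes carried a region more often than protein-coding genes in general. A region was found in 43.1% of them (50 of 116), against 20% of all 21770 protein-coding genes. A peak of replicate 1 was found in 10 second messenger genes (8.62%, against 1.75% of all), a peak of replicate 2 in 42 (36.2%, against 15.2%) and a peak of replicate 3 in 36 (31%, against 11.1%). These genes are long, with a median of 77.3 kb against 19.2 kb for all protein-coding genes, and longer genes carried regions more often. Among genes of 200 kb or more, 77.8% of the second messenger genes (21 of 27) had a region against 62.6% of all. In the class of 100 to 200 kb the values were 50% (11 of 22) and 47.3%, and from 50 to 100 kb they were 38.1% (8 of 21) and 33.2%. From 20 to 50 kb they were 28.6% (8 of 28) and 20.1%, and below 20 kb 11.1% (2 of 18) and 9.15%. The share was higher among the second messenger genes in each of the 5 length classes, and the gap within a class was smaller than the gap over all genes. The mean number of regions per gene was not higher in every class. It was 0.111 against 0.115 below 20 kb and 0.714 against 0.805 from 50 to 100 kb, and 0.607 against 0.321, 2.27 against 1.64 and 6.37 against 3.50 in the classes from 20 to 50 kb, 100 to 200 kb and 200 kb or more.

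**Figure D1:**
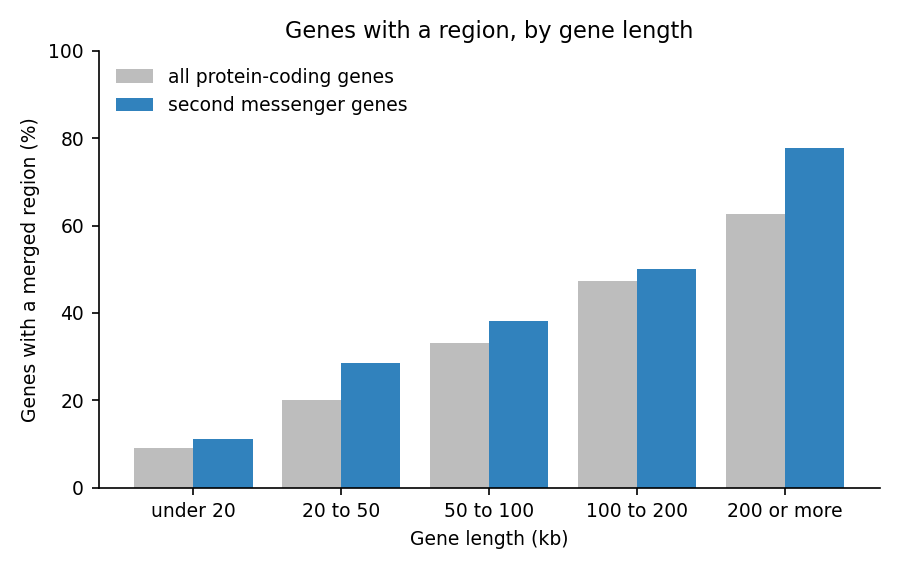
Share of genes with at least 1 merged hMeDIP region (%, vertical axis from 0) by gene length in kb (horizontal axis), for all protein-coding genes (grey bars) and second messenger genes (blue bars). The share rises with length in both, and the blue bar reaches 77.8% against 62.6% in genes of 200 kb or more.

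Per length of gene, peaks were denser in the second messenger genes in all 3 replicates. Replicate 1 had 0.599 peaks per Mb in them and 0.373 in the other protein-coding genes, replicate 2 had 9.04 and 6.27, and replicate 3 had 5.28 and 3.82. The ratio was 1.61, 1.44 and 1.38, with a mean of 1.48 ± 0.116 (SD, n = 3). It was above 1 in 3 of 3 replicates, and an exact two-sided sign-flip permutation test gave p = 0.25, the smallest that 3 replicates allow. A single gene, Prkce, held 19.1% of the regions, and without it the ratio was 1.35, 1.22 and 1.13. The peaks themselves were of the same height as elsewhere. Their median fold enrichments were 4.72, 3.83 and 3.86 in the order of the replicates, against 4.72, 3.83 and 3.87 in the other protein-coding genes. Fold enrichment took few values, and 28.3% of the 166 peaks of replicate 2 in these regions shared the value 3.83.

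Most regions rested on 1 replicate. Of the 256, 241 had a peak of 1 replicate, 12 of 2 and 3 of all 3. The share with peaks of 2 or more replicates was 5.86%, against 6% of all 13342 regions of the series, so the second messenger regions were found again about as often as any other. Without replicate 2 there were 3 such regions, as there were without replicate 3, and without replicate 1 there were 15. Regions had a median length of 304 bp, a median GC content of 48.3% and a median of 6 CpGs, against 304 bp, 49.3% and 7 in the other protein-coding genes. Every second messenger region held a CpG, and 9 of the 256 had no call in any replicate. There were 4 regions that also lay in a protein-coding gene outside the rule and 21 that also lay in a lncRNA gene.

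**Figure D2:**
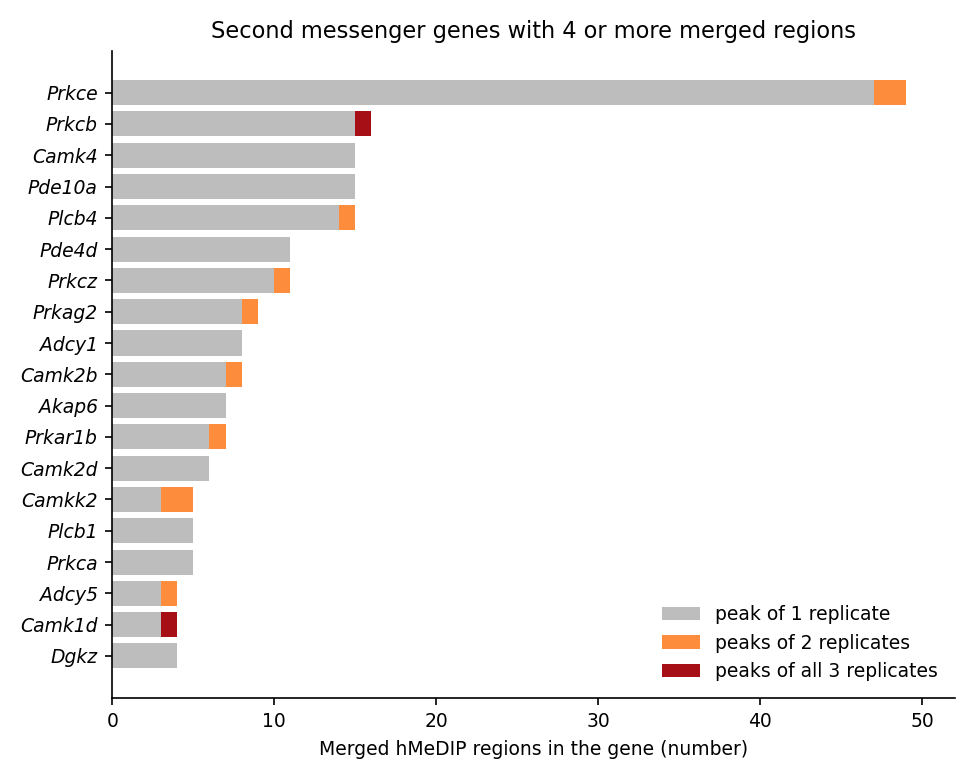
Number of merged hMeDIP regions (horizontal axis) in each second messenger gene with 4 or more, divided into regions with a peak of 1 replicate (grey), of 2 replicates (orange) and of all 3 (red). Prkce has 49 regions, the next gene, Prkcb, has 16, and nearly all regions are grey.

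Of the enzymes that make cyclic nucleotides, the adenylyl cyclases had 16 regions in 5 of 10 genes, and none of the 9 guanylyl cyclase genes had any. Adcy1, the calcium-stimulated cyclase of granule cells, led with 8 regions over 115.2 kb, 6 with a peak of replicate 2 and 2 of replicate 3. Adcy5 had 4, Adcy3 had 2, and Adcy6 and Adcy9 had 1 each. The guanylyl cyclase genes covered 0.844 Mb and included the subunits of the soluble, nitric oxide-responsive enzyme, Gucy1a1 and Gucy1b1. For the adenylyl cyclase regions replicate 1 gave a 5hmC share of 44.4% of 27 calls, replicate 2 gave 34.1% of 129 and replicate 3 gave 56.7% of 60. The mean of 45.1% ± 11.3 (SD, n = 3) carried a wide spread between replicates.

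The single region of Adcy9, a broadly expressed cyclase, had peaks of all 3 replicates. It lay in coding exon 2 at chr16:4236078-4236559, on the minus-strand gene, with fold enrichments of 4.72, 4.62 and 4.72. 5hmC made up 6 of 11, 14 of 22 and 10 of 11 calls in replicates 1, 2 and 3. All 3 replicates were above the 5hmC share of the regions of other genes, and 5mC made up only 3 of the 44 calls. The Adcy5 region with peaks of replicates 2 and 3 lay in the first intron at chr16:35000313-35000763, and 5hmC made up 2 of 8, 3 of 5 and 3 of 7 calls there.

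The phosphodiesterases had 39 regions in 9 of 26 genes, or 6.75 per Mb, fewer than the 9.83 per Mb of other protein-coding genes. Pde10a, which hydrolyses both cAMP and cGMP, had 15 regions over 461.3 kb, 12 with a peak of replicate 2 and 3 of replicate 3. Its 5hmC share was 61.1% of 18 calls, 38.0% of 71 and 57.7% of 26 in replicates 1 to 3, a mean of 52.3% ± 12.5. Pde4d, a cAMP-specific enzyme, had 11 regions but is 1506 kb long, so that it had 0.730 per 100 kb. Its 5hmC share was 21.4% of 28 calls, 30.4% of 23 and 34.7% of 49. Pde4b, Pde4dip (an interaction partner of Pde4d and not an enzyme) and Pde9a had 3 regions each. Pde11a, Pde1b, Pde1c and Pde3a had 1 each, and no phosphodiesterase region had peaks of more than 1 replicate.

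The phospholipases C had 20 regions, all in Plcb4 (15) and Plcb1 (5), of 6 genes. Plcb4 is the isoform of many Purkinje cells and acts downstream of metabotropic glutamate receptors. Its regions had peaks of replicate 2 in 9 cases and of replicate 3 in 7, and 1, in the first intron at chr2:135689313-135689845, had both. The 5hmC share of Plcb4 was 50% of 12 calls, 37.5% of 56 and 34.3% of 35. The diacylglycerol kinases had 12 regions in 6 of 10 genes, or 5.99 per Mb, also fewer than the 9.83 of other protein-coding genes. Dgkz had 4 of them over 43.5 kb (8.98 per 100 kb), and the region of Dgkh at chr14:78907501-78907901 had peaks of replicates 2 and 3.

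Protein kinase C had the most regions of any family, 84 in 6 of 9 genes and 46.4 per Mb, without Prkcsh. With that glucosidase subunit, which the symbol rule takes in, they were 85 in 7 of 10 genes. Prkce, which codes for the calcium-independent epsilon isoform, held 49. Prkcb, a conventional isoform activated by calcium and diacylglycerol, held 16, and the atypical isoform gene Prkcz held 11. Prkca had 5 regions, Prkcd had 2 and Prkci had 1. No region fell in Prkch or Prkcq. Prkcz was the densest of the second messenger genes with 2 or more regions, at 10.7 per 100 kb, followed by Camkk2 at 10.1 and Prkce at 9.97.

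Prkce held the most merged regions of any protein-coding gene, by 1 more than Fgfr2 with 48, and Tiam1 followed with 38. The order differed between replicates, with 2 peaks in Prkce against 1 in Fgfr2 in replicate 1, 29 against 27 in replicate 2 and 20 against 22 in replicate 3. It lies at chr17:86474992-86965429 on the plus strand and is 490.4 kb long. Per 100 kb it ranked 39 of the 184 protein-coding genes with 10 or more regions, behind Prkcz at 31. Its regions included 2 with a peak of replicate 1, 29 of replicate 2 and 20 of replicate 3, and 2 regions had peaks of both replicates 2 and 3. Without replicate 2 Prkce had 22 regions, and without replicate 3 it had 31. The regions ran from 10921 to 481291 bp from the gene start, with a median gap of 5972 bp, and together covered 5.27% of the gene. All of them lay in introns, 30 in the first intron of 184.6 kb (16.3 per 100 kb), 8 in intron 2, 7 in intron 10, 3 in intron 11 and 1 in intron 14. 5hmC took 36.8% of 212 calls of Prkce in replicate 1, while replicate 2 had 34.0% of 435 and replicate 3 had 28.1% of 302. Replicates 1 and 2 were above the regions of other genes and replicate 3 was below.

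**Figure D3:**
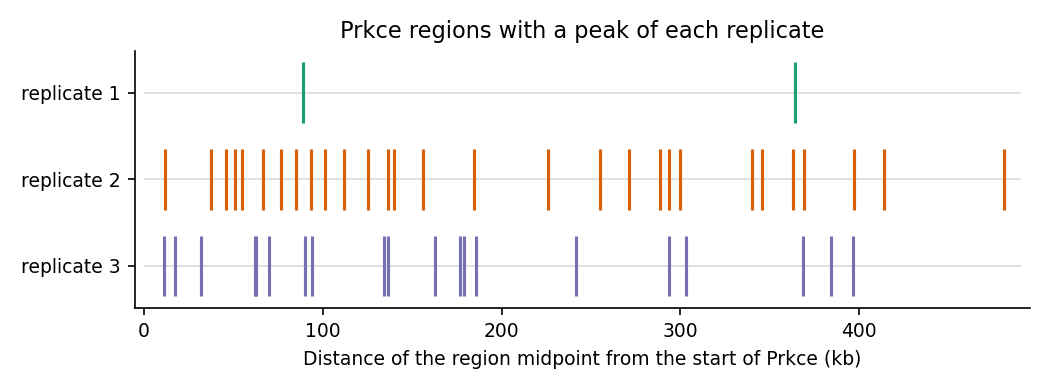
Position of the merged regions of Prkce, as the distance of the region midpoint from the gene start in kb (horizontal axis), in 1 row for the regions with a peak of each replicate. Replicates 2 and 3 (29 and 20 regions) mark positions throughout the gene, most of them in the left part, where the first intron lies.

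The longest second messenger region, 2432 bp with 59 CpGs, lay in the first intron of Prkce at chr17:86610295-86612726. It had peaks of replicates 2 and 3, with fold enrichments of 4.79 and 4.84. In order of the replicates, 5hmC made up 17 of 27, 24 of 58 and 10 of 32 calls. The other such region of Prkce, in intron 2 at chr17:86768405-86769063, had 5 calls of 5hmC of 9 in replicate 1, no calls in replicate 2 and 5 of 22 in replicate 3. The Prkcb region in intron 2 at chr7:121918683-121919329 was 1 of the 3 with peaks of every replicate. Its fold enrichments were 4.72, 2.87 and 4.84, and 5hmC made up 7 of 16, 6 of 9 and 4 of 21 calls. In the first of these Prkce regions and in the Prkcb region, replicate 3 had the lowest 5hmC share.

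The cAMP-dependent kinase genes had 12 regions in 4 of 6 genes, with no region in the catalytic subunit gene Prkaca or the regulatory subunit gene Prkar2b. The other catalytic subunit gene, Prkacb, had 1 region with a peak of replicate 3. Prkar1b, a regulatory subunit gene of the brain, had 7 of them. The Prkar1b region in the first intron at chr5:139114486-139115304 had peaks of replicates 2 and 3, and hardly any of its calls were modified. From replicate 1 to replicate 3, 5hmC made up 0 of 16, 1 of 27 and 0 of 14 calls, and 51 of all 57 calls were unmodified C. Over all 7 regions the 5hmC share of Prkar1b was 4.35% of 23 calls, 11.9% of 42 and 12% of 25, and the replicates were below the regions of other genes in each case. That 1 region gave 57 of the 90 calls of the gene, and in the other 6 regions 5hmC made up 1 of 7, 4 of 15 and 3 of 11 calls. The AMP-activated kinase genes, whose product senses the energy state of the cell and not a second messenger made by these cyclases, had 11 regions, 9 of them in Prkag2. The Prkag2 region in the first intron at chr5:25259365-25259817 had peaks of replicates 2 and 3, and 5hmC made up 3 of 3 and 5 of 8 calls there, and replicate 1 had no calls. The cGMP-dependent kinase gene Prkg1, 1201 kb long, had 3 regions, of which 2 also lay in the protein-coding gene Cstf2t, and Prkg2 had none.

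The calcium/calmodulin kinase group had 43 regions in 8 of 14 genes. Camk4, a nuclear kinase of granule cells, had 15, Camk2b had 8, Camk2d had 6 and Camkk2, which phosphorylates and activates Camk4, had 5. Camk1d had 4 regions, Camk2g had 3, and Camkmt and the inhibitor gene Camk2n2 had 1 each. The Camk2n2 region also lay in the protein-coding gene Eef1ece2. Camk2b codes for the beta subunit of calcium/calmodulin-dependent kinase II, and Camk2a, for the alpha subunit, had no region. The 5hmC share of Camk4 was 33.3% of 18 calls, 50% of 68 and 60% of 40, above the regions of other genes in each replicate. That of Camk2b was 30% of 80 calls, 26.5% of 151 and 29.2% of 154, below them in each. The Camk2b value rested on 1 region in intron 3, at chr11:5956207-5957129, which had 301 of the 385 calls of the gene and the most calls of any second messenger region. There 5mC made up 38 of 66 calls, 50 of 92 and 90 of 143.

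Sequence that recurs in the genome bears on these counts, since reads from other copies can be placed at such a region. Of the 31-base words of the Camk2b region, 87.2% also occurred elsewhere in GRCm39, and the median word occurred 15 times. The Camk1d region with peaks of all 3 replicates, in intron 3 at chr2:5383839-5384259, had 38.1% of its words elsewhere. It had fold enrichments of 8.50, 3.83 and 4.84, the first of which was the highest of any second messenger peak. Its 5hmC calls were 10 of 61, 0 of 24 and 17 of 46. In the regions of Adcy9, Prkcb, Adcy5, Akap7, Prkag2 and Prkar1b with peaks of 2 or more replicates, no word occurred elsewhere. Over all 256 regions, 196 had no such word and 15 had more than 20% of their words elsewhere, 5.86% against 6.38% of the regions of other protein-coding genes. A Camk4 region in the first intron, at chr18:33162703-33163006, had 100% of its words elsewhere, with a median of 2 copies. It had a peak of replicate 2 only, and gave 16 of the 40 calls of Camk4 in replicate 3, 10 of them 5hmC. The part of misplaced reads in the Camk2b, Camk1d and Camk4 values was not tested.

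The A-kinase anchoring proteins had 15 regions in 6 of 16 genes. Akap6, which anchors the cAMP-dependent kinase at the nuclear envelope, had 7, and Akap7 had 3. The Akap7 region at chr10:25046625-25047389, with its midpoint in coding exon 8, had peaks of replicates 2 and 3, and 5hmC made up 7 of 16, 13 of 22 and 13 of 22 calls. Akap9 had 2 regions, and Akap8l, Akap12 and Akap13 had 1 each.

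Taken over all second messenger regions, the share of 5hmC did not stand apart from that in the regions of other protein-coding genes. Replicate 1 gave 33.3% (95% exact binomial interval 29.7 to 37.0), replicate 2 gave 31.2% (29.0 to 33.5) and replicate 3 gave 34.5% (31.8 to 37.3). In the regions of the other genes it was 30.4%, 32.4% and 31.6%. The difference was higher in replicates 1 and 3 and lower in replicate 2, with a mean of 1.56 ± 2.35 percentage points (SD, n = 3; exact two-sided sign-flip permutation p = 0.5). The share of 5mC was 40.9%, 40.4% and 39.4% against 40.5%, 39.9% and 41.0%, a mean difference of -0.194 ± 1.19 points (exact permutation p = 1). Unmodified C took 25.8%, 28.4% and 26.0% against 29.1%, 27.8% and 27.4%, a mean difference of -1.36 ± 1.94 points (exact permutation p = 0.5). Each mean difference was smaller than the SD between the replicates.

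**Figure D4:**
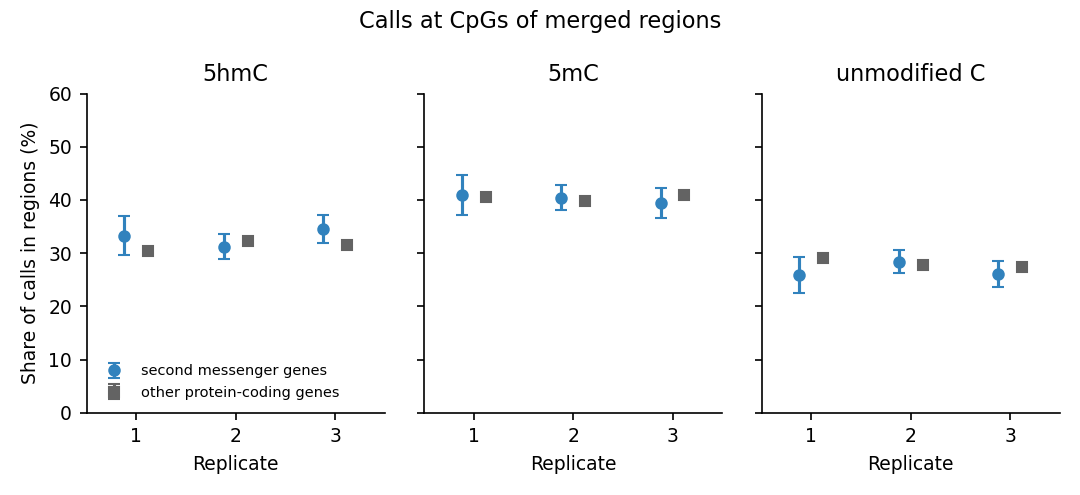
Share of base-calls (%, vertical axis) that were 5hmC, 5mC or unmodified C in each replicate (horizontal axis), for regions of second messenger genes (blue circles with exact 95% binomial intervals of the calls) and of other protein-coding genes (grey squares). In replicate 2 the 5hmC share of 31.2% is below the 32.4% of other genes, and in replicates 1 and 3 it is above.

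The 5hmC share was also compared gene by gene. Of the second messenger genes, 15 had at least 10 calls in each replicate, and in 6 of them (40%) the 5hmC share was above that of other genes' regions in all 3 replicates. Of the 588 protein-coding genes with as many calls, 22.8% were above in all 3. Below in all 3 were 3 second messenger genes (20%), against 14.1%. The mean share over replicates had a median of 36.3% in the 15 genes and of 34.3% in the 588 (quartiles 28.6% and 40.4%). The 6 genes above were Adcy9 (69.7% ± 18.9), Pde10a (52.3% ± 12.5), Akap7 (50.1% ± 6.39), Camk4 (47.8% ± 13.5), Prkcb (41.2% ± 6.23) and Plcb4 (40.6% ± 8.30). The 3 below were Prkar1b (9.42% ± 4.39), Camk2b (28.6% ± 1.84) and Prkcz (30.6% ± 1.77). Camk1d (20.3% ± 13.5) and Pde4d (28.9% ± 6.77) were also low on average but were above the other genes in replicate 3. Adcy9 had the highest share of the 15 in replicates 2 and 3, and Prkar1b the lowest in replicates 1 and 3. Prkcz was only just below, and in replicate 3 it and the other genes both rounded to 31.6%. A replicate's calls were counted in every merged region of a gene, also where that replicate had no peak. Of the 6 genes above, Pde10a, Akap7, Camk4 and Plcb4 had no peak of replicate 1. Within each replicate's own peaks, 4 genes had enough calls, and only Prkcb was above in all 3. Without the regions of which more than 20% of the words occurred elsewhere, the 6 genes above were the same, Camk2b and Prkcz no longer counted as below, and Pde4d did. When replicate 2 was left out and the regions were merged anew, 3 genes (Adcy9, Camk2b and Prkcb) were above and 0 below, so that Camk2b changed sides, against 7 and 7 without replicate 3 and 7 and 6 without replicate 1. For these settings the share of all protein-coding genes above or below was not counted. Neighbours in the middle of the order, such as Camkk2 (36.9% ± 15.3), Adcy5 (36.3% ± 15.4), Prkag2 (33.9% ± 9.74) and Prkce (33.0% ± 4.42), differed by less than their SDs.

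**Figure D5:**
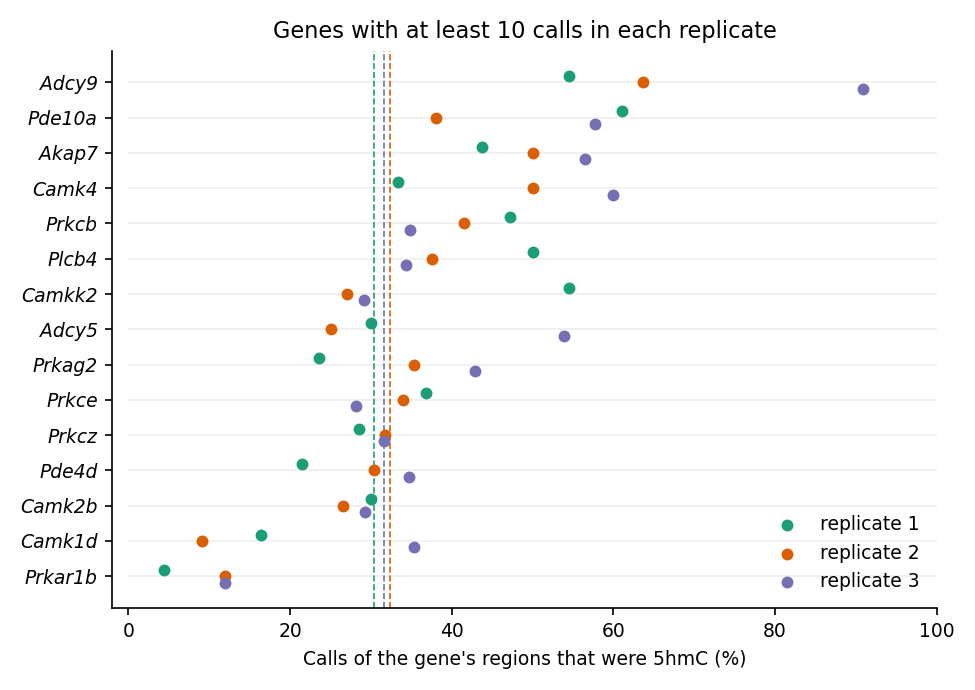
5hmC share of the calls in each gene's regions (%, horizontal axis) for the 15 second messenger genes with at least 10 calls in each replicate, ordered by their mean, with 1 point for each replicate. Dashed lines give the share in the regions of other protein-coding genes in the replicate of that colour, and the points of Adcy9 to Plcb4 lie to their right and those of Prkar1b to their left.

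Introns held most of the regions. The first intron of the canonical transcript held 36.7% of the second messenger regions and later introns 49.6%, against 31.3% and 47.8% of the regions of other protein-coding genes. Coding exons held 2.34%, or 6 regions, against 8.86%, and the 1 kb upstream held 0.391%, or 1 region, against 2.21%. The 6 regions in coding exons belonged to Adcy5, Adcy9, Akap7, Dgkz, Prkcb and Prkcd. 5hmC made up 48.3% of 29, 38.0% of 92 and 54.1% of 61 of their calls. In the coding exon regions of other genes it made up 25.6%, 26.7% and 27.9%, so the second messenger exons were higher in 3 of 3 replicates. Much of the excess lay in the regions of Adcy9 and Akap7. In the other 4 regions 5hmC made up 1 of 2, 8 of 48 (16.7%) and 10 of 28 (35.7%) calls. Those 4 were below the other genes in replicate 2 and above them in replicate 3 and, on 2 calls, in replicate 1. This comparison was chosen after its values were seen. The 94 regions in first introns had 5hmC shares of 37.7%, 33.2% and 32.9%, and those of other genes 35.7%, 37.6% and 36.9%. In later introns the shares were 28.6%, 28.7% and 31.1%, against 31.2%, 32.4% and 30.4%. The excess was not particular to coding exons. The 22 regions outside the canonical transcript had 40.7%, 41.7% and 58.1%, against 29.5%, 32.8% and 34.4%.

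Genes that are known for a cell type of the cerebellar cortex fell into both classes. Among genes known from Purkinje cells, Plcb4 had 15 regions and Prkg1 had 3, and Plcb3, Camk2a, Pde5a, Gucy1a1 and Gucy1b1 had none. The granule cell genes Camk4, Adcy1, Dgkz and Pde1c had 15, 8, 4 and 1 regions. DNA of the whole cerebellum was used, so the cells that carried the 5hmC were not identified.

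Genes on either side of these enzymes in the pathway also carried regions, and they were not compared within classes of gene length. The lists used here were chosen with earlier results of these data known, so their percentages describe the listed genes only. Of 33 G protein subunit genes, which couple receptors to the cyclases and phospholipases, 14 (42.4%) had a region, against 20% of all protein-coding genes. Gnao1, the main G protein alpha subunit of the brain, had 16 regions, Gnaq had 7 and Gnaz had 5. For Gnao1 the 5hmC share was 17.6% of 17 calls, 40% of 75 and 67.4% of 43. That was below the regions of other genes in replicate 1 and above them in replicates 2 and 3. The 5hmC share of Gnaz was 15.4% of 13 calls, 22.9% of 48 and 17.9% of 28, below the regions of other genes in every replicate. Of 28 effectors and regulators, 15 (53.6%) had a region, against the same 20%. Ppp3ca, the catalytic subunit of calcineurin, had 21 regions, 4 of them with peaks of 2 or more replicates, and its 5hmC share was 47.6% of 21 calls, 38.9% of 95 and 37.6% of 93. Crtc3, a coactivator of CREB, had 8 regions with shares of 50% of 12 calls, 46.2% of 65 and 38.3% of 47. Both were above the regions of other genes in every replicate. So was Calm2, with 30.8% of 13 calls, 36.8% of 19 and 51.6% of 31. Rapgef4, a cAMP-activated exchange factor, had 7 regions. Its shares of 8.33% of 12 calls, 28.8% of 80 and 28.6% of 14 were below the regions of other genes in each replicate. Nos1 had 0% of 13 calls, 33.3% of 42 and 39.1% of 46, and Rapgef2 15.4% of 13, 47.6% of 21 and 33.3% of 18. Like Gnao1, both were below other genes in replicate 1 and above them in replicates 2 and 3. Of the 588 protein-coding genes with at least 10 calls in each replicate, 22.8% were above in all 3 and 14.1% below. The inositol trisphosphate receptor gene Itpr1, highly expressed in Purkinje cells, had 3 regions.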

How the data were processed

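The data were the peaks and base-call counts of 3 hMeDIP libraries of cerebellum DNA from 1 mouse. Per the methods of the study, the authors base-called the reads with Dorado, aligned them to mm39 (GRCm39) with minimap2 and counted modifications with modkit at CpG sites, with masked repeats to be left out. The submitters' processing notes name SAMtools and MACS2. MACS2 peaks were called by the authors in each replicate alone, with DNA that had not been immunoprecipitated as the control. The deposited peak lists give a fold enrichment (a ratio to the background), a −log10 p-value and q-value and a display score, of which only the fold enrichment was used. The deposited base-call counts give reads called 5hmC, 5mC or unmodified C for each CpG, and the deposited percent values were recomputed from these counts. All called sites lay within a merged region, and 100% of them were CpGs in GRCm39.

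Peaks overlapping by at least 1 bp were merged, and regions were assigned to GENCODE M39 genes and canonical transcripts. Shares were summed calls over summed valid calls, in each replicate. All merged regions of a set counted, also those without a peak of that replicate. The antibody and replicate 1 could not be told apart, so the replicates were compared only with sets within the same library. Differences were tested by exact two-sided sign-flip permutation over the 3 replicates, for which the smallest p is 0.25. Recurring sequence was measured as the share of 31-base words of a region found more than once in GRCm39 on either strand. Genes are named for the most regions, the highest density, a region with peaks of 2 or more replicates, the highest or lowest 5hmC share with at least 10 calls in each replicate, a known cell type of the cerebellum, or as members of a family described. Not every gene of the rule is reported by name here. Members and lists were chosen with earlier results of these data known. Alternatives covered the fold enrichment, the assignment, merging, calls per site, the comparison regions, deep sites, left-out replicates and genes outside second messenger signalling. Those without Prkce and without regions of recurring sequence were added after the data were seen. Merging, assignment, shares and word counts were checked on simulated data. Computations used scipy 1.17.1, numpy 2.4.6 and pandas 2.3.3 in Python 3.11.15.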

Additional observations from a re-analysis of the deposited data

How the results depend on the processing

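The ratio of peaks per Mb stayed above 1 under every alternative run, from 1.23 without Prkce to 1.57 with peaks of at least 4-fold enrichment, and leaving out a replicate gave 1.41 to 1.52. With that fold enrichment 21.6% of the second messenger genes had a region. The share of all protein-coding genes is given for the main setting only (20%). Neither 21.6% nor the percentages without a replicate can be set against it. At this fold enrichment 4 regions had peaks of 2 or more replicates, and Prkce had 14 regions. Of the 7 genes with enough calls, 2 were above the other genes in all 3 replicates and 2 below. Leaving out a replicate gave 33.6% to 42.2% of genes with a region, 3 to 15 regions with peaks of 2 or more replicates and 3 to 7 genes above. Leaving out replicate 2 gave the lowest value of each, and leaving out replicate 3 also gave 3 such regions. When at least 20 calls in each replicate were asked for, 7 genes had enough, of which 1 was above and 3 were below. Set against all other merged regions, 10 genes were above and 1 below of 15. Those regions had a lower 5hmC share than the regions of other protein-coding genes, in replicate 1 16.5% against 30.4%. Within own peaks 1 gene, Prkcb, was above and 0 below of the 4 with enough calls. How many of all protein-coding genes were above or below was counted for the main setting only. None of these counts can therefore be set against its 22.8% and 14.1%. With at least 3 calls per site no gene had enough. The 5hmC difference changed sign with at least 3 calls per site (-0.235 points) and in the replicate's own peaks (-0.172), and ranged from 0.0726 to 4.21 when a replicate was left out. The 5mC difference became positive with any overlap (1.54), without deep CpGs (0.808), without Camkmt, Prkcsh and the AMP-activated kinase subunits (0.0712) and without Prkce (0.0109), and ranged from -2.46 to 1.19 when a replicate was left out. With at least 3 calls per site it was -3.41 points (exact two-sided sign-flip permutation p = 0.25, the smallest possible). The unmodified C difference became positive with at least 3 calls per site (3.64), in own peaks (0.874), as a mean of region shares (0.650) and against all other merged regions (1.88), and ranged from -1.76 to -0.222 when a replicate was left out. The cause of these changes was not tested. At least 5 calls per site gave no value, since too few sites had them. At most 5 calls at a CpG limit every share to sums over regions.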

Other observations

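Compared with all other merged regions of the series, which include those outside protein-coding genes, the second messenger regions had a 5hmC share that was 8.71 points higher and a 5mC share that was 10.6 points lower on average over the 3 replicates (SD 7.23 and 9.47; exact two-sided sign-flip permutation p = 0.25 for each, the smallest possible). Replicate 1 carried much of both means. The 5hmC differences were 16.8, 2.92 and 6.39 points and the 5mC differences -21.5, -4.44 and -5.82 points in replicates 1, 2 and 3, with means of 4.66 and -5.13 without replicate 1. Set against the regions of other protein-coding genes alone, neither difference exceeded its SD.

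Some single regions had calls mostly of 1 base, and they were picked out after their values were seen. The region of Camk2n2, an inhibitor of calcium/calmodulin-dependent kinase II, lay in an untranslated exon at chr16:20438295-20438598 with a peak of replicate 2, and all 16 of its calls were unmodified C. A Prkce region in a later intron at chr17:86843159-86843535 had 14 unmodified C calls of 15, and 32.3% of its 31-base words occurred elsewhere. In an intron of Akap8l, at chr17:32552803-32553106, 37 of 45 calls were 5mC. In the first intron of Prkce, 18 of the 25 calls of the region at chr17:86520433-86520787 were 5hmC and none was unmodified C.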
